A study of Mus musculus with 29 samples.

Results

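Expanded endoderm cultures, which the labels call nEnd, were compared with the naive embryonic stem cells they were made from, across all genes on single-colour expression arrays. The comparison rests on 9 of the 29 arrays of the series: 3 Mid and 3 Late arrays, which together are nEnd with equal weight, and 3 ESC arrays. These arrays were picked by their sample labels and not by any measured value. The comparison and the gene lists were, however, chosen with earlier results of these data known. Mid cultures were endoderm at passage 7 to 10, and Late cultures were endoderm at passage 14 to 15, both passaged in nEnd medium. ESC were stem cells grown in 2i, a pair of kinase inhibitors, with LIF, a cytokine that keeps mouse stem cells undifferentiated. A further 3 arrays, labelled Diff, hold the step between them, cells taken through 7 to 8 days of Activin, CHIRON and LIF, which are used only to show which differences were already present before passaging. All 12 samples come from the same male mouse line, HRHnG, a double reporter line, so the controls carry the reporters too and the comparison rests on 1 line. Each nEnd replicate is a separate set of differentiations and passages. For ESC nothing states that replicates are separate cultures, so p-values measure only the spread between arrays within the groups of this series.

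Naive embryonic stem cells resemble the epiblast of the blastocyst before implantation, and a network of transcription factors around Nanog, Sox2, Esrrb and Klf proteins keeps them there. Primitive endoderm is the other lineage of the inner cell mass. It depends on Gata6 and Sox17, covers the epiblast, lays down basement membrane and later forms visceral and parietal endoderm. Visceral endoderm takes up maternal nutrients by endocytosis and secretes carrier proteins, much as fetal liver does, while parietal endoderm secretes the thick membrane of the yolk sac. Some of the same factors, Sox17 and Foxa2 among them, also mark definitive endoderm of the later embryo.

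Values are log2 signals minus the 75th percentile of each array, so 0 is the 75th percentile itself and a difference of 1 is a factor of 2. A gene was called at an adjusted p under 0.05 in a limma model of all 29 arrays, where 16333 genes were tested. The share of probes well above background was 53.5% to 67.9% on nEnd arrays and 58.0% to 70.6% on ESC arrays. Replicate arrays correlated at 0.969 or more within Mid, Late and ESC. Mid 3 and ESC 3 were read on a second scan day, from slide 3. Mid 1 and Late 1 were on slide 1, which held no ESC array, and the rest were on slide 2. Of the 8701 genes called over all arrays, 7182 were also called with the same direction from the arrays of slide 2 alone, which called 7871.

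Col4a1 and Col4a2 rose together, and the windows around their starts are shown because the genes run in opposite directions from starts that lie close together. They encode the chains of the main collagen IV of basement membranes and lie head to head on chromosome 8. RefSeq (GRCm38.p6) places their starts 21 bases apart, so their promoter windows share 78 bases, chr8:11312777-11312854, printed in capitals in both. Col4a1 is read on the minus strand (window chr8:11312777-11313076) and Col4a2 on the plus strand (window chr8:11312555-11312854). The Col4a1 start is at the higher coordinate, so the first annotated bases of both genes overlap. The third window is the first of 2 annotated starts of Dab2, an adaptor of endocytosis, on the plus strand of chromosome 15 (chr15:6299539-6299838). Its capitals mark a match to AGATAA, a form of the sequence that GATA factors bind, here as TTATCT on the other strand. Other forms, such as the TGATAA also in this window, were not searched for or marked. All windows run 5′ to 3′.
Col4a1: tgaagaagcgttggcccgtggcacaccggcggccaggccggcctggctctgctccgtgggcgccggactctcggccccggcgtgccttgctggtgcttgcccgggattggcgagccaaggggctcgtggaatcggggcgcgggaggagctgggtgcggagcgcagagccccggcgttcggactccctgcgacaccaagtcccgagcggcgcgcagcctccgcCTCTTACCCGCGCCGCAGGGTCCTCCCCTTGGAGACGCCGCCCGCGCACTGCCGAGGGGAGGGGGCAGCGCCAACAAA
Col4a2: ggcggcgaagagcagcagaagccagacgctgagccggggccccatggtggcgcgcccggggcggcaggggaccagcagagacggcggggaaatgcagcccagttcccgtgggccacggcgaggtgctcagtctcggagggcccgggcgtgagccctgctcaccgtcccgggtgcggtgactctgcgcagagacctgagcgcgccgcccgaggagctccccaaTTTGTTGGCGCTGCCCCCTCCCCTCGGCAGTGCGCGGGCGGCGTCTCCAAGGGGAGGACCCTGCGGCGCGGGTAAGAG
Dab2: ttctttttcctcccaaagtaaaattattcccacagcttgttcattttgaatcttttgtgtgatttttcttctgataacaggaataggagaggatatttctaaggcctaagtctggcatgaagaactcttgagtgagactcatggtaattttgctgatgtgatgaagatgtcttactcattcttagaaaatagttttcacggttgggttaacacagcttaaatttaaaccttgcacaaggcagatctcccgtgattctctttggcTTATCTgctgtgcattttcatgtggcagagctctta
AGATAA or TTATCT was found in 11.2% of all 32851 promoter windows in the RefSeq table, and on neither strand of the windows of Cubn, Lrp2, Amn, Col4a1, Col4a2 and Lamb1 or of the other window of Dab2. One of the 3 windows of Foxa2 and one of the 2 of Hnf4a hold it as well. GGGCGG or CCGCCC, the GC box, was found in 35.7% of all windows, and in those of Col4a1, Col4a2, Lrp2, Amn and Lamb1. A match describes the letters only.

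nEnd minus ESC asks what the whole path, differentiation and then passaging, left changed. Primitive endoderm factors such as Sox17 and Gata6, Col4a1 and the uptake genes Cubn and Dab2 were high in nEnd and at or near background in ESC. Nanog, Sox2 and Fgf4 fell to near background. Klf4 and Klf5, which belong to the same network, differed from ESC by less than 1 log2 unit even at the ends of their 95% intervals. In such bulk samples, fewer cells of a type and less RNA per cell cannot be told apart. Over all genes 8701 (53.3%) were called, 4573 higher (28.0%) and 4128 lower (25.3%). Of these, 5806 differed by more than 1 on the log2 scale, and 353 were higher and 276 lower by more than 5. The nEnd and ESC arrays did not overlap for 7953 genes (48.7%). Lack of overlap is thus common, and the rule that picks the largest differences on all 9 arrays requires it. For 5481 genes (33.6%) the 95% confidence interval of the difference lay within 1 log2 unit of 0. The balance of directions depends on the scaling: with each array centred on its median, which moved the median of all genes by 0.285 on the log2 scale, 4880 were higher and 2476 lower, 66.3% higher in place of 52.6%. Sizes depend on the background correction where a gene was dim in 1 of the groups: with the normexp correction the difference of Sox17 was 7.01 in place of 12.14, that of Nanog -5.52 in place of -8.66, and 7773 genes were called. Where a gene was well above background on only some arrays of a group, the number of such arrays stands in brackets after its difference. Differences carry their standard error after the sign ±, with n = 6 nEnd and 3 ESC arrays.

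**Figure D1:**
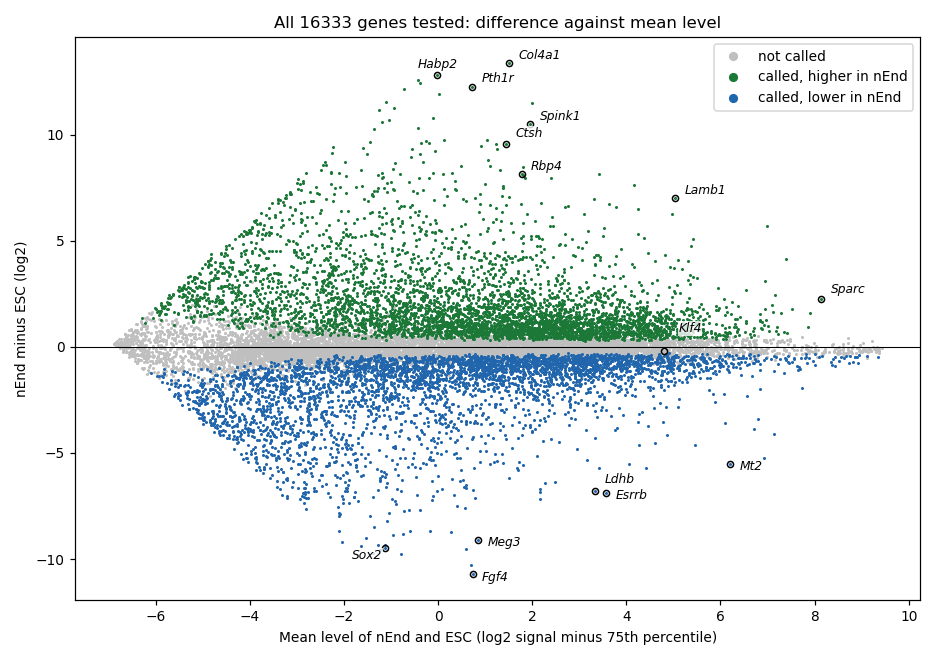
Each point is 1 of the 16333 genes tested, placed by the mean of its nEnd and ESC levels (x axis, log2 signal relative to the array's 75th percentile) and by nEnd minus ESC (y axis, log2). Green points were called higher and blue points lower in nEnd; Col4a1 lies at 13.38 and Fgf4 at -10.71, while Klf4 lies at -0.20.

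Transcription factors of endoderm rose in nEnd. Of 17 tested members of the list 11 rose and 2 fell, with a median difference of 4.56, against -0.05 over all genes. Counts here and below are of members tested, to be set against 28.0% higher and 25.3% lower over all genes. A member too dim in every group, such as Hnf4g here or Alb, serum albumin, is left out. Sox17, a factor of primitive and definitive endoderm, read 5.05 to 5.54 (median 5.38) on the 6 nEnd arrays, against -6.79, -6.23 and -7.38 on the ESC arrays. None of the ESC arrays was well above background, so the gene was at least 1296-fold higher in nEnd (adjusted p = 4.5e-16). Gata6, which sets primitive endoderm identity, read 4.43 to 4.80 (median 4.62) on the 6 nEnd arrays, against -5.49, -5.17 and -4.34 on the ESC arrays. It rose by 9.62 ± 0.52 (1 of 3 ESC), at an adjusted p of 7.0e-13. For Sox17 and Gata6 the nEnd values were tightly grouped and far from the ESC values.

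Foxa2, a forkhead factor of endoderm, rose by 10.78 ± 0.68 (1 of 3 ESC) and Foxq1, another forkhead factor, by 9.23 ± 0.48 (2 of 3 ESC). Hnf4a, a nuclear receptor that drives liver and visceral endoderm genes, read 3.00 to 4.06 (median 3.33) on the 6 nEnd arrays, against -2.82, -2.83 and -4.03 on the ESC arrays, and rose by 6.69 ± 0.51. Gata4, a partner of Gata6, rose by 6.33 ± 0.35. Sox7, another Sox factor of the extraembryonic endoderm, was higher at least 71-fold and Foxa1 at least 9.14-fold. Both members that fell belong to the organiser and anterior epiblast as well. Gsc, the homeobox gene goosecoid, was not well above background on any nEnd array and was at least 26.2-fold lower, and Otx2, a homeobox factor of the anterior embryo, fell by 4.29 ± 0.70 (5 of 6 nEnd). Eomes, Lhx1 and Mixl1, which also act in gastrulation, were not called, at 0.57, -0.22 and -0.96.

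**Figure D2:**
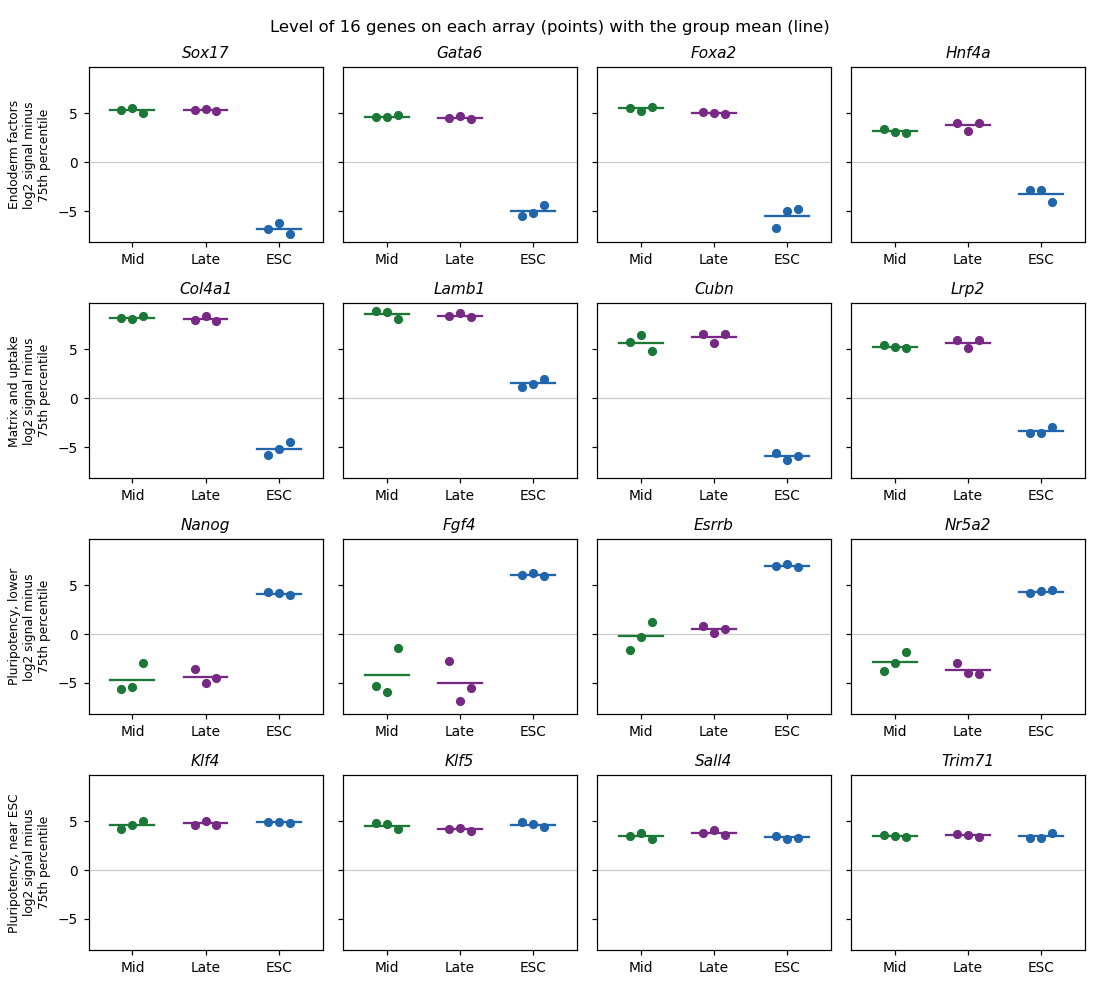
Level of 16 genes on each array (points; log2 signal minus the 75th percentile of the array) in Mid, Late and ESC, with the mean of each group as a line. Sox17, Gata6, Col4a1 and Cubn stand far above ESC in all 6 nEnd arrays, Nanog, Fgf4, Esrrb and Nr5a2 far below, while Klf4, Klf5, Sall4 and Trim71 lie near the ESC values.

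Both chains of the first collagen IV and all 3 chains of the first laminin of the embryo rose. Of 22 tested basement membrane genes 11 rose, 2 fell and 9 were not called (median 0.57). Col4a1, whose window is printed above with that of its partner, read 7.95 to 8.41 (median 8.18) on the 6 nEnd arrays, against -5.85, -5.24 and -4.47 on the ESC arrays. It rose by 13.38 ± 0.69 (1 of 3 ESC). Col4a2 read 7.52 to 8.00 (median 7.69) on the 6 nEnd arrays, against -3.41, -3.53 and -4.28 on the ESC arrays. It was measured on all 9 arrays and rose by 11.48 ± 0.47 (adjusted p = 1.1e-14). Both genes of the pair thus moved by more than 11 log2 units, with no overlap between nEnd and ESC.

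Lamb1, the beta chain of the first laminin of the embryo, read 8.14 to 8.89 (median 8.52) on the 6 nEnd arrays, against 1.14, 1.47 and 1.99 on the ESC arrays, and rose by 7.00 ± 0.37. Its partners Lama1 and Lamc1, the alpha and gamma chains of that laminin, were already well measured in ESC, at means of 5.39 and 5.21, and rose by 3.09 and 2.69. Lamb3, a chain of an epithelial laminin, rose by 4.03 (1 of 3 ESC). Its call was lost in 3 of 24 alternatives, at a highest adjusted p of 0.315. Sparc, a matrix protein abundant in parietal endoderm, rose by 2.23 and Hspg2, the proteoglycan perlecan, by 1.37. The nidogens Nid1 and Nid2, which link laminin to collagen, were not called, at -0.79 and -0.45. Fn1, fibronectin, fell by 2.61 ± 0.39.

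Enzymes that fold and crosslink collagen rose with the chains. Of 16 genes 10 rose and 2 fell, with a median of 1.83. Serpinh1, the collagen chaperone of the endoplasmic reticulum, read 6.73 to 7.30 (median 7.08) on the 6 nEnd arrays, against -0.15, 0.73 and 0.90 on the ESC arrays. It rose by 6.56 ± 0.37, without overlap of the arrays. P3h2 and P4ha2, prolyl hydroxylases that stabilise collagen, rose by 6.35 (2 of 3 ESC) and 5.60, and Loxl2, a lysyl oxidase, by 5.07. Pxdn, the peroxidase that crosslinks collagen IV, is in no list and had 1 of the 10 largest differences among genes measured on all 9 arrays. It read 5.76 to 6.51 (median 5.87) on the 6 nEnd arrays, against -3.41, -3.69 and -3.55 on the ESC arrays, and rose by 9.57 ± 0.40. Loxl1 and Loxl3, of the same oxidase family as Loxl2, were lower, Loxl1 by 2.20 (2 of 6 nEnd) and Loxl3 at least 2.46-fold. With normexp neither call held, and another Loxl1 probe was not called, at -0.81.

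The genes of the cubilin and megalin uptake complex rose together. Cubn, the receptor cubilin, read 4.88 to 6.57 (median 6.10) on the 6 nEnd arrays, against -5.62, -6.31 and -5.89 on the ESC arrays, and was at least 2009-fold higher. Dab2, the adaptor that couples the complex to clathrin, read 5.30 to 6.42 (median 5.86) on the 6 nEnd arrays, against -6.73, -6.30 and -7.07 on the ESC arrays, and was at least 1850-fold higher. No ESC array was well above background for either gene. Amn, the membrane anchor of cubilin, rose by 8.32 ± 0.35 and Lrp2, megalin, by 8.80 ± 0.41, both measured on all 9 arrays and with no overlap. Clcn5, an endosomal chloride transporter of the same route, rose by 4.64 and Lrpap1, the chaperone of megalin, by 3.26. Other receptors went the opposite way: Fcgrt, the Fc receptor that carries antibodies, fell by 4.09 (2 of 6 nEnd), Lrp1, a scavenger receptor related to megalin, by 2.41 and Tfrc, the transferrin receptor, by 2.10. In all, 9 of 16 rose and 5 fell (median 1.72), and with median centring 10 rose and 3 fell. Sort1, another member, was not called by its main probe, at -0.52, but other probes were called higher, at 3.51 and 0.78.

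Lysosomal proteins, which digest what such receptors bring in, were higher in 14 of 22 cases and lower in 4 (median 0.88; 14 and 1 with median centring). Ctsh, the protease cathepsin H, read 3.71 to 8.03 (median 6.39) on the 6 nEnd arrays, against -3.61, -2.57 and -3.85 on the ESC arrays, and rose by 9.58 ± 0.46. Its nEnd values were spread, with differences from ESC of 8.17 in Late and 10.99 in Mid. This difference between stages was called (adjusted p = 0.0026), though not when the Mid and Late arrays alone were paired by number. Naglu, an enzyme that degrades heparan sulfate, rose by 3.70, Ctsz, cathepsin Z, by 2.80 and Lgmn, the protease legumain, by 2.76.

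Secreted and surface proteins of visceral endoderm rose in 16 of 21 cases, fell in 1 and were not called in 4 (median 2.62, and 1.59 with normexp). Ttr, the carrier transthyretin, read 3.74 to 5.47 (median 4.82) on the 6 nEnd arrays, against -5.83, -6.34 and -7.53 on the ESC arrays, and was at least 832-fold higher. Spink1, a trypsin inhibitor, read 6.42 to 7.92 (median 7.12) on the 6 nEnd arrays, against -2.95, -3.67 and -3.28 on the ESC arrays, and rose by 10.51 ± 0.52. Ihh, the ligand indian hedgehog, which visceral endoderm sends to the tissue beneath it, rose by 9.46 ± 0.50 (2 of 3 ESC). These 3 genes did not overlap between nEnd and ESC. Rbp4, the carrier of retinol, rose by 8.14 ± 0.43, and Cited1, a transcriptional cofactor, by 6.24 ± 0.59. Afp, alpha-fetoprotein, was at least 40.3-fold higher. Trf, transferrin, was the member that fell, by 1.57, and its call was lost in 6 of 24 alternatives, median centring among them. Fga and Fgg, fibrinogen chains, and Serpina1a, a liver protease inhibitor, were not called, at -0.35, -0.36 and -0.20, whereas Fgb, the other fibrinogen chain, rose by 6.06 (2 of 3 ESC).

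Lipid transport genes rose in 14 of 20 cases and fell in 3 (median 1.98). With normexp 11 rose and the median was 0.46, and with the series matrix values it was 0.59. Mttp, which loads lipid onto lipoproteins, rose by 7.20 ± 0.28 (1 of 3 ESC) and Apoa1, the main protein of high-density lipoprotein, was at least 41.1-fold higher. Soat2, which makes cholesterol esters, rose by 3.86. Apoe, an apolipoprotein already high in ESC, was not called, at means of 7.46 in nEnd and 7.22 in ESC. Lpl, lipoprotein lipase, fell by 5.76 ± 0.64 (2 of 6 nEnd).

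Genes of the gut lining and its hormones rose in 11 of 17 tested cases (median 3.16, and 1.16 with normexp). Tff1, a trefoil peptide of the stomach, was higher at least 273-fold and Gkn2, a gastrokine, at least 114-fold. Tff3, of the same trefoil family as Tff1, rose by 8.14 (1 of 3 ESC). Ghrl, which encodes the hormone ghrelin, read 2.38 to 5.04 (median 3.20) on the 6 nEnd arrays, against -2.42, -2.60 and -1.93 on the ESC arrays, and rose by 5.77 ± 0.43. The neuroendocrine granule gene Chga fell by 2.70, and Sst, somatostatin, and Gip, a gut hormone, were not called, at -0.55 and 0.04. Members of the definitive endoderm and foregut list rose in 12 of 18 cases and fell in 3, but some of these, Sox17, Foxa2 and Spink1 among them, sit in other lists as well. Of the genes of that list alone, Nepn, a proteoglycan of foregut, rose by 8.09 (1 of 3 ESC) and Cpm, a carboxypeptidase, by 8.53 (2 of 3 ESC). Cer1, a secreted antagonist of the anterior endoderm, was not well above background on any nEnd array, and Trh, a peptide hormone, fell by 5.42.

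Parietal endoderm markers rose too. Of 11 genes 10 rose and 1 fell (median 4.93, and 2.94 with normexp). Pth1r, a hormone receptor of parietal endoderm, read 6.51 to 7.37 (median 6.82) on the 6 nEnd arrays, against -5.30, -6.24 and -4.67 on the ESC arrays, and rose by 12.26 ± 0.45 (1 of 3 ESC). Thbd, the surface protein thrombomodulin, was at least 122-fold higher and Thbs1, a matrix protein, at least 60.2-fold. Plat, the tissue plasminogen activator, rose by 7.40 ± 0.50 (1 of 3 ESC). Vim, the intermediate filament protein vimentin, was the member that fell, reading -1.98 to 1.62 (median 0.12) on the 6 nEnd arrays, against 4.25, 3.68 and 3.59 on the ESC arrays, by 3.79 ± 0.51.

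**Figure D3:**
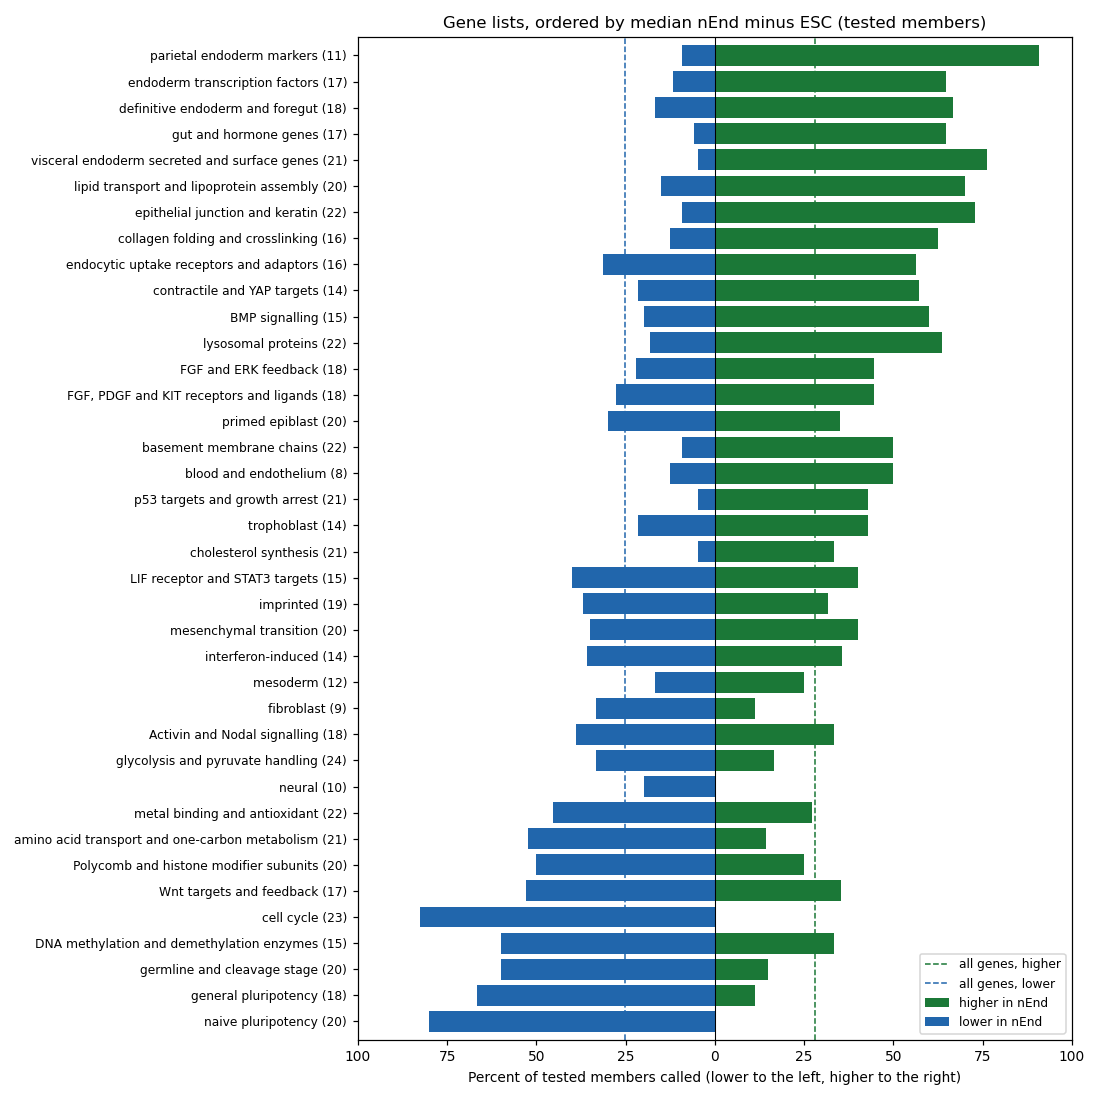
Percent of the tested members of each of 38 gene lists called lower (blue, to the left) or higher (green, to the right) in nEnd than in ESC, ordered by the median difference, with the number tested in brackets and dashed lines at the shares over all genes (25.3% lower and 28.0% higher). Parietal and endoderm factor lists are at the top, and naive pluripotency, with 16 of 20 members lower, is at the bottom.

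The arrays were also read for markers of other cell types the cultures could hold. Among trophoblast genes 6 of 14 rose and 3 fell, and the summed level of the list was 2.71 to 2.93 on nEnd arrays against 3.90 to 4.46 on ESC arrays, as log2 of the sum. Such sums are of linear values, so their brightest members weigh most. The median difference of this list was 0.36. Plac1, made by trophoblast, was at least 31.7-fold higher, while Tfap2c, a factor of trophoblast and germ cells, fell by 7.21 (4 of 6 nEnd) and Hand1 was not well above background on any nEnd array. The mesoderm sum was 3.17 to 3.49 in nEnd against 4.49 to 4.87 in ESC (3 of 12 higher and 2 lower). The median difference of the mesoderm list was -0.09, and Cdx1, a Wnt target in it, fell by 6.99. Tbx20, a heart factor, rose by 3.25, but other probes of it were not called, at 1.37 and 0.69. T and Hand1 were well above background on 1 and 0 nEnd arrays. The neural sum was 1.86 to 2.13 in nEnd against 2.52 to 3.08 in ESC, with 0 of 10 genes higher and 2 lower. Neurod1 and Map2, of neurons, were not well above background on any nEnd array. The fibroblast sums overlapped, 0.47 to 1.43 in nEnd against 0.85 to 1.32 in ESC. Of that list 1 of 9 rose and 3 fell. Col6a1, a collagen VI chain, rose by 4.88 (1 of 3 ESC), and Postn and Dcn were not well above background on any nEnd array. The blood and endothelium sum was higher, 3.90 to 4.13 in nEnd against 3.07 to 3.59 in ESC, with 4 of 8 genes higher and 1 lower. Runx1, a blood factor, rose by 5.76 and Cdh5, an endothelial cadherin, was at least 11-fold higher, while Ptprc, the leukocyte antigen CD45, was not called, at -0.13. Many members of these lists were measured in nEnd. Well above background on all 6 nEnd arrays were 8 of 14 trophoblast, 8 of 12 mesoderm and 6 of 10 neural genes. The same held for 3 of 9 fibroblast genes and 7 of 8 of blood and endothelium. Hand1, Neurod1, Map2, Dcn and Postn were the only tested members well above background on no nEnd array. What part such cells have in the differences above was not tested.

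Naive pluripotency genes fell in 16 of 20 cases and rose in 0, with a median of -4.51. All 20 were well above background on every ESC array and 13 still were on every nEnd array. Fgf4, the growth factor that stem cells secrete, read -6.81 to -1.38 (median -5.45) on the 6 nEnd arrays, against 6.02, 6.28 and 5.98 on the ESC arrays. It fell by 10.71 ± 0.82 (2 of 6 nEnd), at an adjusted p of 1.5e-10. Nanog, a core factor of the naive state, read -5.64 to -2.97 (median -4.75) on the 6 nEnd arrays, against 4.29, 4.19 and 4.00 on the ESC arrays, and fell by 8.66 ± 0.67 (2 of 6 nEnd). Another Nanog probe was not called, at 0.32 (adjusted p = 0.49). In both genes every nEnd array was below every ESC array.

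Nr5a2, a nuclear receptor that binds the Pou5f1 gene, fell by 7.61 ± 0.46, Tcl1, a cofactor of the kinase Akt, by 7.18 ± 0.62 (5 of 6 nEnd) and Prdm14, a repressor of differentiation, by 6.99 ± 0.59 (4 of 6 nEnd). Esrrb, an orphan nuclear receptor, read -1.62 to 1.27 (median 0.34) on the 6 nEnd arrays, against 6.96, 7.18 and 6.90 on the ESC arrays, and fell by 6.87 ± 0.50. It was still well above background on all 6 nEnd arrays. Klf2, a Krüppel-like factor, fell by 6.85 ± 0.59. Its relatives Klf4 and Klf5 were not called. Klf4 read 4.23 to 5.08 (median 4.65) on the 6 nEnd arrays, against 4.89, 4.97 and 4.86 on the ESC arrays, a difference of -0.20 with a 95% interval from -0.71 to 0.31. Klf5 differed by -0.28 (-0.77 to 0.21). Their nEnd and ESC arrays overlapped. Manba, a lysosomal enzyme listed with naive genes, differed by 0.18 (-0.38 to 0.73). Dppa5a, an RNA-binding protein of stem cells, fell by only 0.85 ± 0.35, and the call was lost in 10 of 24 alternatives.

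Of 18 genes of general pluripotency 12 fell and 2 rose (median -1.88). Sox2, a core factor, read -6.80 to -2.44 (median -6.51) on the 6 nEnd arrays, against 3.65, 3.58 and 3.63 on the ESC arrays, and fell by 9.50 ± 0.64 (1 of 6 nEnd). Pou5f1, the core factor Oct4, read 1.94 to 3.26 (median 2.89) on the 6 nEnd arrays, against 5.90, 5.84 and 5.90 on the ESC arrays. It fell by 3.09 ± 0.38 and was well above background on all 9 arrays, with no overlap. Foxd3, a repressor of the early epiblast, fell by 7.12 (1 of 6 nEnd) and Zscan10, a zinc finger factor of stem cells, by 4.18. Sall4, a zinc finger factor, and Trim71, a regulator of translation, had intervals within 1 log2 unit of 0, at 0.32 (-0.20 to 0.83) and 0.05 (-0.40 to 0.50). Both members that rose were Epcam, a surface protein of epithelia, by 4.71, and Lin28a, which blocks the processing of let-7, by 3.52.

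Primed epiblast genes as a list were near the shares over all genes (28.0% higher and 25.3% lower), with 7 higher and 6 lower of 20. In the series matrix values 3 of 18 were lower. Krt18, a keratin, led the rise at 7.60, while Nodal, a signal of the epiblast, fell by 5.07 ± 0.43. Fgf5, the usual mark of primed epiblast, was not well above background on any of the 9 arrays. Among germline and cleavage-stage genes 12 of 20 fell and 3 rose. Tfap2c fell as given above, Dazl, an RNA-binding protein of germ cells, was at least 19.3-fold lower, and Hormad1, a meiotic chromosome protein, fell by 4.77 (2 of 6 nEnd). The members that rose were Rhox6, Rhox9 and Rhox5, reproductive homeobox genes of the X chromosome, by 5.25, 3.29 and 1.80. Zscan4c and Zscan4f, of the cleavage-stage embryo, were not called, at -0.28 and -0.23; as near-identical copies, their probes may share targets.

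Dnmt3a and Dnmt3b, which set new methylation, rose by 2.70 ± 0.35 and 2.11 ± 0.33. Apobec1, a cytidine deaminase, fell by 5.48, Zfp57, which guards imprints, by 5.23, Tet1 and Tet2, which oxidise methylcytosine, by 4.76 ± 0.34 and 3.67 ± 0.28, and Uhrf1, which guides maintenance methylation, by 2.85. In all 5 of 15 rose and 9 fell, 5 of 12 in the series matrix values. Tet3 fell by 0.59 by its main probe, but 2 other probes were called higher, so its direction is uncertain. Of 19 imprinted genes 6 were higher and 7 lower, against 28.0% and 25.3% over all genes. Meg3, a maternally expressed long RNA, read -5.18 to -1.55 (median -3.89) on the 6 nEnd arrays, against 6.51, 5.53 and 4.17 on the ESC arrays, and fell by 9.11 ± 0.55 (4 of 6 nEnd), and Mirg, from the same locus, fell by 6.24 ± 0.44. Peg10, expressed from the paternal copy, rose by 5.19 ± 0.61 (2 of 3 ESC).

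Growth factor receptors changed in both directions. Pdgfra, the PDGF receptor of primitive endoderm, read 4.46 to 4.98 (median 4.71) on the 6 nEnd arrays, against -5.57, -5.60 and -5.59 on the ESC arrays, and was at least 848-fold higher. Flt1, a VEGF receptor, rose by 9.76 ± 0.47 (1 of 3 ESC), Fgfr3 by 5.45 ± 0.42 and Fgfr4 by 3.90 ± 0.35. Fgfr1, the receptor of the epiblast, read -4.11 to -1.47 (median -2.59) on the 6 nEnd arrays, against 3.69, 3.89 and 3.97 on the ESC arrays, and fell by 6.60 ± 0.45. Its other probes disagreed, at -4.27 (adjusted p = 1.7e-10) and -0.11 (adjusted p = 0.54, not called), so the size of its change is uncertain. Pdgfc, a ligand of Pdgfra, fell by 6.74 (3 of 6 nEnd) and Pdgfa, another, by 2.30. Kit and Kdr, receptors for other ligands, were not called, at 0.41 and -0.15. Of 18 such genes 8 rose and 5 fell.

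2i blocks the kinase that activates ERK, and the ESC arrays come from cells in that inhibitor. Of 18 ERK target and feedback genes 8 rose and 4 fell. Egr1, an immediate early factor, rose by 4.97 ± 0.64 (1 of 3 ESC), Dusp4, a phosphatase that shuts off ERK, by 4.41 ± 0.42 and Phlda1 by 4.35 ± 0.39. Etv1 and Etv5, factors downstream of FGF, fell by 4.70 ± 0.52 and 3.52 ± 0.42 (another Etv1 probe was not called, at -1.15), and Ccnd1, cyclin D1, by 4.00 ± 0.61. In the Nodal route 6 of 18 rose and 7 fell. Fst, an inhibitor of Activin, rose by 2.54. Lefty2, a feedback inhibitor of Nodal, fell by 3.96 and Foxh1, a partner of Smad2, by 3.56. Bmp2 rose by 7.40 ± 0.47, and Id2, Id1 and Id3, targets of BMP signals, rose by 6.23, 5.46 and 4.20, while Id4 fell by 5.85 (4 of 6 nEnd) and the ligands Bmp7 and Bmp4 by 6.80 (1 of 6 nEnd) and 4.04. Of the BMP list 9 of 15 rose and 3 fell.

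Wnt targets fell in 9 of 17 cases and rose in 6. Sp5, a direct target of beta-catenin, fell by 7.99 ± 0.87 (1 of 6 nEnd) and Cdx1, a caudal homeobox target, read -3.49 to -2.82 (median -3.21) on the 6 nEnd arrays, against 3.36, 4.19 and 3.94 on the ESC arrays, and fell by 6.99 ± 0.49. Axin2, a feedback inhibitor, fell by 2.58 (2 of 6 nEnd). Dkk1, a secreted Wnt inhibitor, rose by 8.13 ± 0.67. Among LIF receptor and STAT3 genes 6 rose and 6 fell of 15. Osmr, the oncostatin M receptor, rose by 4.98 ± 0.39 (1 of 3 ESC), Pim1, a kinase induced by STAT3, fell by 5.64 ± 0.37 (5 of 6 nEnd), and Socs3, the feedback inhibitor of the route, was not called, at 0.63.

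Epithelial genes rose in 16 of 22 cases and fell in 2 (median 1.96). Krt19, a simple epithelial keratin, read 5.52 to 6.52 (median 5.83) on the 6 nEnd arrays, against -1.88, -2.75 and -2.10 on the ESC arrays, and rose by 8.10 ± 0.70. Cldn6 and Cldn7, tight junction proteins, rose by 7.43 (2 of 3 ESC) and 6.25, while Cldn3, of the same family, fell by 4.58 (2 of 6 nEnd) and Grhl2, an epithelial factor, by 3.25, although another Grhl2 probe was not called, at 0.27. Cdh1, E-cadherin, was not called, at means of 4.40 in nEnd and 3.99 in ESC. Of 20 mesenchymal genes 8 rose and 7 fell, 4 with normexp. Zeb1, a repressor of epithelial genes, fell by 6.53 ± 0.52 (3 of 6 nEnd), Snai1, another, rose by 3.46 ± 0.44, and Zeb2 was not well above background on any of the 9 arrays. Contractile genes and targets of YAP rose in 8 of 14 cases and fell in 3, 0 with median centring. Among those that fell, Tpm1 had -1.15 by its main probe. Other Tpm1 probes were called higher, at 2.24, 1.55 and 1.28, so its direction is uncertain. Zyx, of focal adhesions, rose by 5.13, Myl9, a myosin light chain, by 3.79 (2 of 3 ESC), and Cnn1, a calponin of contractile cells, was at least 27.2-fold higher.

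Cell cycle genes were lower in 19 of 23 cases and higher in 0, by small amounts (median -0.97, the lowest -1.64). E2f1, a factor of S phase entry, fell by 1.64 ± 0.20, Mcm5, a replication helicase subunit, by 1.63 ± 0.21 and Rrm2, which supplies nucleotides, by 1.55 ± 0.34. Mki67, a mark of dividing cells, was not called, at -0.28. This count depends on the scaling, since 11 genes were lower with median centring. Cdc6, of the same list, was not called by its main probe, at -0.09, but another probe was called higher, at 0.65. Among p53 targets and growth arrest genes 9 of 21 rose, led by Btg2 at 3.07 and Ccng1 at 2.07, and 1 fell. The inhibitors Cdkn1a and Cdkn2a were not called, at 0.02 and -0.03, but another Cdkn1a probe was called higher, at 1.42 (adjusted p = 0.0050).

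Of 24 glycolysis genes 12 were not called, 4 rose and 8 fell, 3 with median centring. Ldhb, a lactate dehydrogenase subunit, read -1.24 to 1.95 (median -0.22) on the 6 nEnd arrays, against 6.55, 6.70 and 6.99 on the ESC arrays, and fell by 6.82 ± 0.50, while Ldha, the other subunit, was not called, at 0.07. Pfkp, the platelet phosphofructokinase, read -3.79 to -1.40 (median -2.62) on the 6 nEnd arrays, against 4.47, 3.98 and 3.88 on the ESC arrays, and fell by 6.74 ± 0.46, while Pfkl, the liver form, rose by 1.12 ± 0.27. Pdk4, a kinase that shuts off pyruvate oxidation, fell by 5.05 (1 of 6 nEnd) and Pdk2, its relative, rose by 3.11. Hkdc1, a hexokinase, read 5.59 to 6.26 (median 5.92) on the 6 nEnd arrays, against -3.97, -2.84 and -3.38 on the ESC arrays, and rose by 9.30 ± 0.42.

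Of 21 genes of amino acid transport and one-carbon metabolism 11 fell (8 with median centring), 3 rose and 7 were not called. Slc38a4, an amino acid transporter, read -6.88 to -3.05 (median -6.60) on the 6 nEnd arrays, against 2.58, 3.17 and 3.17 on the ESC arrays. It fell with 1 of 6 nEnd arrays well above background, and no arrays overlapped. Slc7a3, a transporter of cationic amino acids, fell by 6.19 ± 0.51. In no list, Cbs, which turns homocysteine into cystathionine, read -1.67 to -0.75 (median -1.20) on the 6 nEnd arrays, against 5.97, 5.81 and 4.75 on the ESC arrays, and fell by 6.69 ± 0.39. Dmgdh and Bhmt2, of the betaine and homocysteine route, were not well above background on any nEnd array and were at least 135-fold and 97.5-fold lower. Of 22 metal binding and antioxidant genes 10 fell and 6 rose. Metallothionein Mt2 fell by 5.52 ± 0.43 and Mt1 by 3.42 ± 0.46. Nqo1, a quinone reductase, fell by 6.06 ± 0.53 (4 of 6 nEnd) and Gpx3, a secreted glutathione peroxidase, rose by 6.63 ± 0.40. Cholesterol synthesis genes were mostly not called (13 of 21), with Insig1, a sterol sensor, higher by 1.85. Of 14 interferon-induced genes 5 rose and 5 fell, against 28.0% and 25.3% over all genes. Oasl2 rose by 6.87 ± 0.58 (1 of 3 ESC) and Ifitm2 fell by 4.83 ± 0.33.

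The rest of the extremes fall in no list. Among genes that were dim on all ESC arrays, Habp2, a protease that binds hyaluronan, read 5.47 to 6.90 (median 6.53) on the 6 nEnd arrays, against -6.79, -6.35 and -6.15 on the ESC arrays, and at least 2639-fold was the largest such ratio. S100g, the calcium carrier calbindin D9k, was at least 1814-fold and Adora1, an adenosine receptor, at least 805-fold higher. In all 240 genes were well above background on every nEnd array and on no ESC array. Aqp8, a water channel, rose by 8.49 ± 0.49, Amot, which binds YAP, by 8.51 ± 0.47 and Mc3r, a melanocortin receptor, by 8.47 ± 0.49. The reverse, above background on all ESC arrays and no nEnd array, held for 229 genes. Fzd10, a Wnt receptor, was at least 210-fold and Jakmip1, which binds microtubules, at least 169-fold lower. Qpct, glutaminyl cyclase, Fxyd4, a regulator of the sodium pump, and Bmerb1 were at least 85.5-fold, 57.6-fold and 49.1-fold lower. Dlgap3, a scaffold of synapses, fell by 7.14 ± 0.50, Acsbg3, an acyl-CoA synthetase, by 7.01 ± 0.57 and Inpp5d, the lipid phosphatase SHIP1, by 6.64 ± 0.39. Genes of this paragraph were picked for arrays that lie apart, or for being dim on one side alone, with the largest sizes. That their nEnd and ESC arrays did not overlap is therefore no further result.

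Which of these differences came with passaging was read from nEnd minus Diff, where 5164 genes (31.6%) were called, 2333 higher (14.3%) and 2831 lower (17.3%). With median centring 3413 were called, 1361 higher and 2052 lower. With same-numbered Mid and Late averaged, 3471 were called. This comparison shares the nEnd arrays with nEnd minus ESC, so the 2 do not test the same thing independently. Of 17 endoderm factors 1 was higher than in Diff and 4 were lower, and the others were not called. Sox17, Cubn, Dab2, Col4a1, Lamb1 and Pdgfra were not called, at nEnd minus Diff of 0.69, -1.05, -0.05, 0.38, -0.05 and 0.93. Visceral endoderm proteins were higher than in Diff in 11 of 21 cases and lower in 0, and gut and hormone genes in 8 of 17 and 1. Naive pluripotency genes were lower than in Diff in 16 of 20 cases. Zscan4c and Zscan4f, which did not differ detectably from ESC, were lower in nEnd than in Diff by 5.64 ± 0.83 and 6.64 ± 1.12.

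Genes higher in nEnd than in either earlier stage, and measured on all 12 arrays, were led by Ghrl, higher than in Diff by 6.38 ± 0.43 (adjusted p = 4.0e-10). Clu, the secreted chaperone clusterin, had a mean level of 7.49 in nEnd, against 1.28 in Diff and 1.02 in ESC. Rbp4 was higher than in Diff by 5.76 ± 0.43, Cfc1, a coreceptor of Nodal, by 5.77 ± 0.47 and Spon2, a secreted matrix protein, by 5.57 ± 0.35. Ifi27, an interferon-induced gene, had a mean of 2.04 in nEnd, -3.25 in Diff and 0.66 in ESC, so it was lowest in the stage between. The difference from ESC, 1.39 ± 0.39, was lost on slide 2 alone.

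Genes lower in nEnd than in either earlier stage were led by Dnmt3l, the cofactor of new DNA methylation, with means of 0.29 in nEnd, 6.38 in Diff and 2.01 in ESC. Trh had means of -1.53, 4.17 and 3.89 in nEnd, Diff and ESC. Pfkp was lower than in Diff by 5.60 ± 0.46, Zfp979 by 5.59 ± 0.32 and Zfp981, another zinc finger gene, by 4.75 ± 0.32. Mgmt, which repairs alkylated guanine, was lower than in Diff by 4.84 ± 0.40. The ranked genes were within about 1 log2 unit of ESC in Diff, except Dnmt3l, which was higher there, and Pfkp, whose Diff minus ESC was -1.14.

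**Figure D4:**
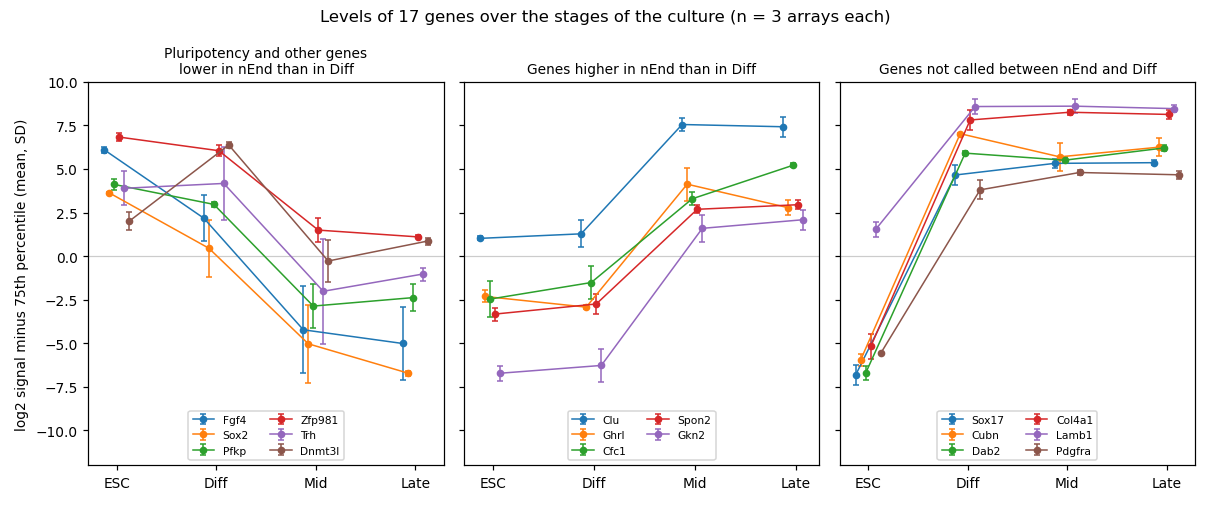
Mean level (log2 signal minus the 75th percentile; error bars are SD, n = 3 arrays) of 17 genes in ESC, Diff, Mid and Late, in that order. Left, genes lower in nEnd than in Diff, where Fgf4 and Sox2 end below -4; middle, genes higher in nEnd than in Diff; right, endoderm genes not called in nEnd minus Diff.

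Late minus ESC called 7938 genes and Mid minus ESC 8163, both against the same ESC arrays. The distance from the ESC mean, the root mean square log2 difference over all genes tested, was 1.98 ± 0.05 in Late and 2.03 ± 0.04 in Mid, against 1.68 ± 0.12 in Diff (SD, n = 3 each). Each ESC array set against the other ESC arrays gave 0.526 ± 0.077. Late and Mid differed by -0.04 (exact two-sided permutation test, p = 0.3; 3 against 3 arrays cannot go below 0.1).

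Late minus Mid called 1118 genes (6.85%), 617 higher (3.78%) and 501 lower (3.07%). Same-numbered Mid and Late arrays deviated together, but same-numbered ESC arrays also had positive correlations with them. Mid and Late were treated as paired in alternative fits, though not in the main model, because each nEnd replicate is its own set. Paired by number, with the Mid and Late arrays alone, limma called 0 genes, with 3488 at an unadjusted p under 0.05. The model of all arrays had 3500 at that unadjusted p. Without the pairing, the Mid and Late arrays alone called 255 genes. Every Late minus Mid call below is thus lost when Mid and Late alone are paired, in a fit of fewer arrays. With replicate number as a block on the arrays of all 4 stages, 684 genes were called, 528 of them as in the main model. The main count also rests on single arrays: it was 438 without Late 1, 409 without Late 3, 493 without Mid 1 and 659 without Mid 2. With median centring it was 384, of which 90 were higher in Late. Among genes also called in nEnd minus ESC, Smlr1, which encodes a small leucine-rich protein, read -0.75, -3.45 and -0.87 on the Late arrays, against -6.23, -6.28 and -4.46 on the Mid arrays, a difference of 3.97 (adjusted p = 7.2e-04). Fabp1, the liver fatty acid binding protein, read -1.73, -2.89 and -2.61 on the Late arrays, against -6.27, -6.52 and -6.02 on the Mid arrays, where no Mid array was well above background, and was at least 5.45-fold higher in Late. Every Late array was above every Mid array for both genes, which were well above background on 4 and 3 of 6 nEnd arrays. Wnt6, a Wnt ligand, differed by 3.22 and Kcnq1ot1, an imprinted antisense RNA, by 3.98, and the nEnd minus ESC calls of Fabp1, Wnt6 and Kcnq1ot1 were lost in 10, 14 and 14 of 24 alternatives.

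Lower in Late was Cxcl5, a chemokine, which read -6.77, -6.82 and -6.35 on the Late arrays, against -1.50, -2.48 and -0.46 on the Mid arrays. No Late array was well above background, so it was at least 9.73-fold lower in Late (adjusted p = 3.6e-04). St6galnac5, a sialyltransferase, read -4.45, -4.77 and -6.66 on the Late arrays, against 0.39, -0.06 and -0.98 on the Mid arrays, a difference of -5.08. For both genes, well above background on 3 and 4 of 6 nEnd arrays, every Late array was below every Mid array. Ankrd1, a target of YAP, differed by -3.93. Zfp26, a zinc finger gene, was not well above background on any Late array and was at least 12.9-fold lower there. The lists with most Late minus Mid calls were cholesterol synthesis, with 6 of 21 higher in Late against 3.78% over all genes, and cell cycle, with 5 of 23 higher, while the endoderm factor list had 1.

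Differences were also summed by chromosome, since genes of 1 chromosome can move together whatever their function. Of the 556 genes tested on chromosome 19, 226 (40.6%) were called higher in nEnd and 76 (13.7%) lower, against 28.0% and 25.3% over all genes. The median difference from the ESC mean of the genes of chromosome 19, relative to the median of all genes on the same array, was 0.39, 0.43 and 0.29 on the Mid arrays and 0.45, 0.41 and 0.38 on the Late arrays, against 0.02, 0.00 and 0.03 on the Diff arrays and -0.01 to 0.01 on the ESC arrays. All 6 nEnd arrays were thus above all ESC and Diff arrays, and chromosome 19 was the one with all 6 nEnd arrays above 0.2. Chromosome 13 was lower on 2 Mid arrays, at -0.30 and -0.39, but not on the other, at 0.06; the Late arrays stood at -0.09 to -0.14 and the Diff arrays at 0.07 to 0.14. Some genes named above lie on these chromosomes: Rbp4, Habp2, Dkk1 and Ankrd1 on 19, and Pfkp, Dmgdh and Bhmt2 on 13. Their differences were many times these medians. What moved the medians was not tested.

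**Figure D5:**
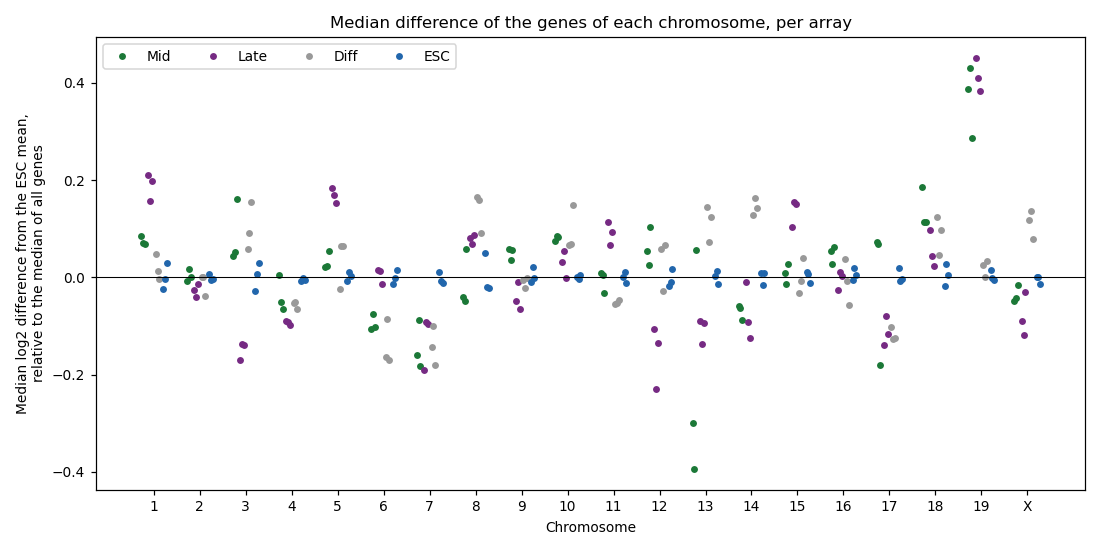
Median log2 difference from the ESC mean of the genes of each chromosome, relative to the median of all genes on that array (y axis), for each Mid, Late, Diff and ESC array (points). On chromosome 19 the 6 nEnd arrays lie between 0.29 and 0.45 while Diff and ESC lie near 0, and on chromosome 13 Mid arrays 1 and 2 lie at -0.30 and -0.39.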

How the data were processed

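Cells were lysed in their wells, and each sample's Cy3-labelled RNA was read on its own single-colour Agilent array. The authors deposited the scanner output, whose intensity values were extracted by Feature Extraction 11.0.1.1 or 12.0.1.1, per the file headers (9.1 in the submitters' processing notes). Their deposited value table, taken here as log2 values, has column medians of 5.94 to 5.95 and unstated centring, and served as an alternative. Its r with the scanner's log2 signal was 0.909 to 0.937.

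Processed intensities of a probe's spots were averaged without irregular spots (132 to 205 left out on the 9 arrays), put on the log2 scale and set relative to each array's 75th percentile, 139 to 323 intensity units. Of 55681 probes 27636 matched 1 symbol through RefSeq accessions (GRCm38.p6, for names only) and 28045 matched none or conflicting ones. A gene is its probe with the highest mean, tested where at least 1 of the 9 groups had it well above background throughout. limma 3.58.1 (R 4.3.3) fitted 9 group means to 29 arrays with Benjamini-Hochberg adjustment, and called adjusted p under 0.05. All adjusted p-values are from this model, which was tested on simulated data. An "at least" fold sets the bright group's mean against the dim group's, with each dim array raised, where lower, to its lowest signal well above background; such genes have their fitted p in the same model. Precision is limited by the number of arrays.

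Genes were named by rule: the 10 highest and 10 lowest differences measured on all 9 arrays without overlap; the 8 largest bounds each way; the 6 largest nEnd minus Diff differences each way, measured on all 12 arrays; up to 4 called members of each of 38 lists with the largest difference; Klf4, Klf5, Manba, Sall4 and Trim71 as members near ESC; and the 4 largest Late minus Mid differences each way. Some genes that the rule names are not reported here. Other members named beside these were chosen after their values were seen. Comparison, lists and rules were chosen with earlier results of these data known. Of 169 genes of the lists and rules with another probe tested, 37 had one with another call, of which 2, Tet3 and Tpm1, had calls in opposite directions.

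The design note says that each nEnd replicate is its own set. Same-numbered Mid and Late arrays were therefore treated as paired in alternative fits, though not in the main model. The blocked value stands beside Late minus Mid. Same-numbered Mid and Late arrays deviated together (r = 0.218, 0.129 and 0.141). Same-numbered ESC arrays, not stated to be paired, also gave 0.182, 0.025 and 0.173 with Mid and 0.252, 0.084 and 0.125 with Late. Some same-numbered arrays share a slide, such as Mid 1 with Late 1, Mid 2 with Late 2 and Mid 3 with ESC 3. Whether cultures or slides made arrays deviate together was not tested. Alternatives were background correction, scaling, filter, probe choice, arrays in the fit, blocks for replicate number, slide and scan day, and leaving out each array. Fits on slide 2 or scan day 1 alone and the pairing of Mid and Late alone were added after seeing the data. Samples of other kinds in the series entered the filter on dim genes and the estimate of spread.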

Additional observations from a re-analysis of the deposited data

Results flagged for a closer look

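For 18 named genes the change from ESC differed between Late and Mid by the test of that difference in the model of all arrays. Pairing by number with the Mid and Late arrays alone left no call, while the replicate block on all 4 stages called 684 genes. Lower in Late, as log2 Late minus Mid, were St6galnac5 (-5.08), Ankrd1 (-3.93), the stress cytokine Gdf15 (-3.63), Ctsh (-2.82), Apoa1 (-2.59), Mgmt (-2.31) and Ifi27 (-1.68). Higher in Late were Mcm5 (0.90), the sterol enzymes Cyp51 (1.42) and Hsd17b7 (1.60), Cfc1 (1.93), the interleukin 6 receptor Il6ra (1.98), Wnt6 (3.22), Smlr1 (3.97) and Kcnq1ot1 (3.98). Cxcl5 and Zfp26, not well above background on any Late array, were at least 9.73-fold and 12.9-fold lower in Late, and Fabp1, not well above background on any Mid array, at least 5.45-fold higher.

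Among probes that match no gene symbol, which the comparisons above do not use, 1352 of 15285 tested were called higher in nEnd than in ESC and 3060 lower. In either direction 28.9% of these probes were called, against 53.3% of the genes tested.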

How the results depend on the processing

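Genes called in nEnd minus ESC ranged over the alternatives from 7356 with median centring to 9069 with quantile normalization. They numbered 7773 with normexp, 8888 and 8605 with slide or scan day as a block, 7871 on slide 2 alone and 8992 with the replicate block, and 7747 to 8596 when 1 array was left out. Genes called in nEnd minus Diff numbered 3413 with median centring and 3208 on slide 2 alone, which holds fewer arrays. Late minus Mid was the least stable: 384 genes with median centring, 719 with the 15 arrays of the first set, 255 with the groups compared alone, 684 with the replicate block on all 4 stages, 703 with scan day as a block, 0 on slide 2 alone, 0 with the replicate block on Mid and Late alone, and 409 to 1272 when 1 array was left out. The pairing moved no other count of calls by more than 1.5 times. However, with same-numbered Mid and Late averaged, nEnd minus Diff called 3471 genes in place of 5164, close to that limit. The distance of Late and Mid from ESC kept its sign in the background, scaling, filter and probe alternatives and without each array (exact p from 0.2 to 0.6).

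Of 643 genes of the lists and rules, 464 were called, and 351 of these kept their call and direction in all alternatives run. Of those not called, 60 were called in some alternative. Reversed were Tet3, at 0.0082 with the series matrix values and 0.9248 with the mean of all probes, Tpm1, at 0.5645 with the mean of all probes, and the imprinted gene Zim1, at -0.0040 with the series matrix values. Tet3 and Tpm1 have probes called in opposite directions, and for Zim1 the cause was not tested. Median centring moved counts of lower members from 19 to 11 for cell cycle, 8 to 3 for glycolysis and 10 to 5 for Polycomb subunits. Signal near background limits sizes: with normexp the median of the endoderm factors was 2.00, that of definitive endoderm 1.58, that of germline and cleavage-stage genes -0.49 and that of naive pluripotency -3.17.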

Other observations

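Genes of histone modification, not described above, went both ways: of 20 Polycomb and histone modifier subunits 10 fell and 5 rose in nEnd, and 5 fell with median centring.

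Smaller chromosome-wide values were also found. Relative to the median of all genes, chromosome 1 stood at 0.16 to 0.21 above the ESC mean on the Late arrays and 0.07 to 0.08 on the Mid arrays, and chromosome 5 at 0.15 to 0.18 on the Late arrays and 0.02 to 0.05 on the Mid arrays. Chromosome 3 stood at -0.17 to -0.14 on the Late arrays and 0.04 to 0.16 on the Mid arrays. On chromosome 17, Mid 3 stood at -0.18 while Mid 1 and Mid 2 stood at 0.07. Among the 455 genes of chromosome 19 well above background on all 9 arrays, the median of nEnd minus ESC relative to all such genes was 0.33. No cause was tested for any of these values.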
